A study of Mus musculus with 30 samples.

Results

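The comparison was of tumour cells sorted from 4T1 tumours of mice given the antibody C269 with those of mice given a control IgG1. It used 8 of the 30 RNA-seq libraries of the series, 5 labelled CTRL (libraries 1 to 5) and 3 labelled C269 (libraries 6 to 8). C269 is an antibody against extracellular NAMPT (eNAMPT) and was given 2 times weekly over 1 month, each dose being 2.5 mg/kg. The mice are labelled wild-type, the tumour line is 4T1-GFP, a mouse mammary carcinoma line carrying green fluorescent protein, and the labels do not say whether each library came from its own mouse, so p-values measure the spread between these libraries only. The other libraries are of CD4 and CD8 T cells taken from tumours with magnetic beads, in 5 CTRL and 5 C269 samples of each.

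A further 2 libraries labelled 4T1 C269, numbered 9 and 10, were left out, a choice selected on measured values of 3 gut genes. Muc2, the main secreted mucin of the large intestine, stood at 4408 and 5348 CPM (counts scaled to a common total of counts assigned to genes) in them, Lypd8, a protein of the colonic surface, at 5180 and 4679 CPM, and Car1, a carbonic anhydrase of colon and red cells, at 4190 and 4984 CPM. In the other 28 libraries the highest values of these genes were 10.7, 11.1 and 12.8 CPM. The marker genes Cited1, Prlr, Krt19 and Ndrg1 were likewise chosen by their levels in C269 and CTRL. All results below are without libraries 9 and 10, and a check with them closes the section.

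NAMPT is an intracellular enzyme that makes a precursor of the coenzyme NAD, and its secreted form is a cytokine that can signal through Toll-like receptor 4. Mammary epithelium is built of basal cells and 2 kinds of luminal cell. Hormone-sensing luminal cells carry the receptors for oestrogen, progesterone and prolactin and the co-regulator Cited1, and alveolar luminal cells make milk proteins when prolactin acts through its receptor, the kinase JAK2 and the transcription factor STAT5. Ndrg1 belongs to another programme, the genes that hypoxia-inducible factors switch on when oxygen is short.

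The 8 libraries held 2347983 to 4879069 counts assigned to genes, spread over 15540 to 18972 detected genes. The libraries did not divide by treatment. CTRL libraries 1 and 3 correlated at r = 0.951 over the tested genes (log2 CPM, a description only) and at 0.930 to 0.946 with C269 libraries 6 and 7, but at 0.762 to 0.850 with CTRL libraries 2, 4 and 5. Library 8 correlated with libraries 1 and 3 at 0.891 to 0.897, and the 3 C269 libraries among themselves at 0.910 to 0.943. The epithelial label was checked against keratins: Krt8, a keratin of simple epithelium, was at 89.7 ± 52.9 CPM (SD, n = 5) in the 4T1 CTRL libraries and at 86.6 ± 11.6 CPM (SD, n = 5) in the CD4 CTRL libraries. Its partner Krt18 was at 146 ± 74.0 CPM and 140.5 ± 28.7 CPM (SD, n = 5 each). In the CD8 CTRL libraries Krt8 was at 15.1 ± 7.01 CPM and Krt18 at 16.9 ± 12.1 CPM (SD, n = 5 each). These keratins thus stood above the CD8 fraction but did not set the 4T1 fraction apart from the CD4 fraction, whereas Cd3e, a chain of the T cell receptor complex, did, at 12.97 ± 8.31 CPM against 177 ± 38.0 CPM (SD, n = 5 each). Neutrophil genes were abundant in the sorted fraction, at a summed 4876 to 15936 CPM in CTRL and 3933 to 14871 CPM in C269.

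In the quasi-likelihood test of edgeR none of 13750 tested genes passed at an adjusted p of 0.05 (0% called, smallest adjusted p 0.36). At an unadjusted p under 0.05, 232 genes were higher in C269 (1.69%) and 519 lower (3.77%). The 3 C269 libraries lay above all 5 CTRL libraries in 297 genes (2.16%) and below all of them in 392 (2.85%). With CPM divided by the TMM factors that the test uses, these counts were 407 and 376, so which direction held more genes depends on the scaling. Separation from CTRL is given below for CPM without these factors, and of the genes described as apart, Hk2, C1qa, Snai1, Mmp8, Tgfb2 and Herpud1 overlapped with them. DESeq2, run as an alternative, called 24 of 13700 genes higher (0.175%) and 60 lower (0.438%). The median log2 difference over all tested genes was 0.00, and 50.1% of them were higher in C269. Since no gene passed the main test, the genes below are described by their levels. For every list below, the count of members apart from CTRL stands against 2.16% (above) and 2.85% (below) of all tested genes. The gene lists and several of the genes were chosen with earlier results of these data known. A share of members above these percentages is thus not independent evidence for a list.

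Of 14 tested genes of hormone-sensing luminal cells, 5 were higher in all 3 C269 libraries than in any CTRL library (against 2.16% of all tested genes), and library 8 was the highest of the 8 for 11 of the 14. Cited1 (ENSMUSG00000051159, GRCm38 chrX:102247381-102252181, minus strand), a transcriptional co-regulator of hormone-sensing cells, stood at 9.62, 9.80, 6.50, 10.03 and 10.4 CPM in CTRL libraries 1 to 5 and at 47.2, 35.9 and 215 CPM in C269 libraries 6 to 8. The groups did not overlap, and library 8 was several times above the other C269 libraries. Their log2 fold change was 3.40 (SE 0.48), and 2.36 without library 8. In bulk RNA, more cells of a type and more RNA per cell cannot be told apart.

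Prlr (ENSMUSG00000005268, chr15:10177238-10349180), the prolactin receptor, was at 4.49, 45.2, 9.86, 21.8 and 30.8 CPM in CTRL and at 130.5, 85.5 and 682 CPM in C269, with a log2 fold change of 3.77 (SE 0.73). Krt19 (ENSMUSG00000020911, chr11:100140810-100148665), a luminal keratin, was at 15.2, 27.3, 13.9, 16.6 and 52.3 CPM in CTRL and at 102, 56.4 and 413 CPM in C269. Its lowest C269 library lay just above CTRL library 5, and its log2 fold change was 2.92 (SE 0.60). Without library 8 the values were 2.54 for Prlr and 1.88 for Krt19. For these 3 genes, which were picked for this difference, no test is given. Ptn, the secreted growth factor pleiotrophin, was at 10.98 to 25.8 CPM in CTRL (median 11.8) and at 58.7, 88.5 and 705 CPM in C269. Its log2 fold change of 4.19 (SE 0.67, edgeR adjusted p = 0.36) came to 2.48 without library 8.

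The hormone receptors of the list differed among themselves. Pgr, the progesterone receptor, was at 2.26 to 7.62 CPM in CTRL and at 8.58, 8.61 and 39.7 CPM in C269, so that 2 of the C269 libraries were close to CTRL library 5 (log2 fold change 2.20, SE 0.62, edgeR adjusted p = 0.805, and 1.26 without library 8). Esr1, the oestrogen receptor whose activity induces Pgr, was at 5.11 to 25.97 CPM in CTRL and at 15.1, 11.3 and 32.3 CPM in C269. The groups overlapped for Esr1, and its log2 fold change of 0.30 (SE 0.50) was smaller than its error, and -0.10 without library 8. Of the 15 list members, all found, 14 were tested. Of these, 11 were higher and 3 lower, 5 of them lay above all CTRL libraries, none passed edgeR, and the median log2 difference was 1.56, or 0.73 without library 8.

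**Figure D1:**
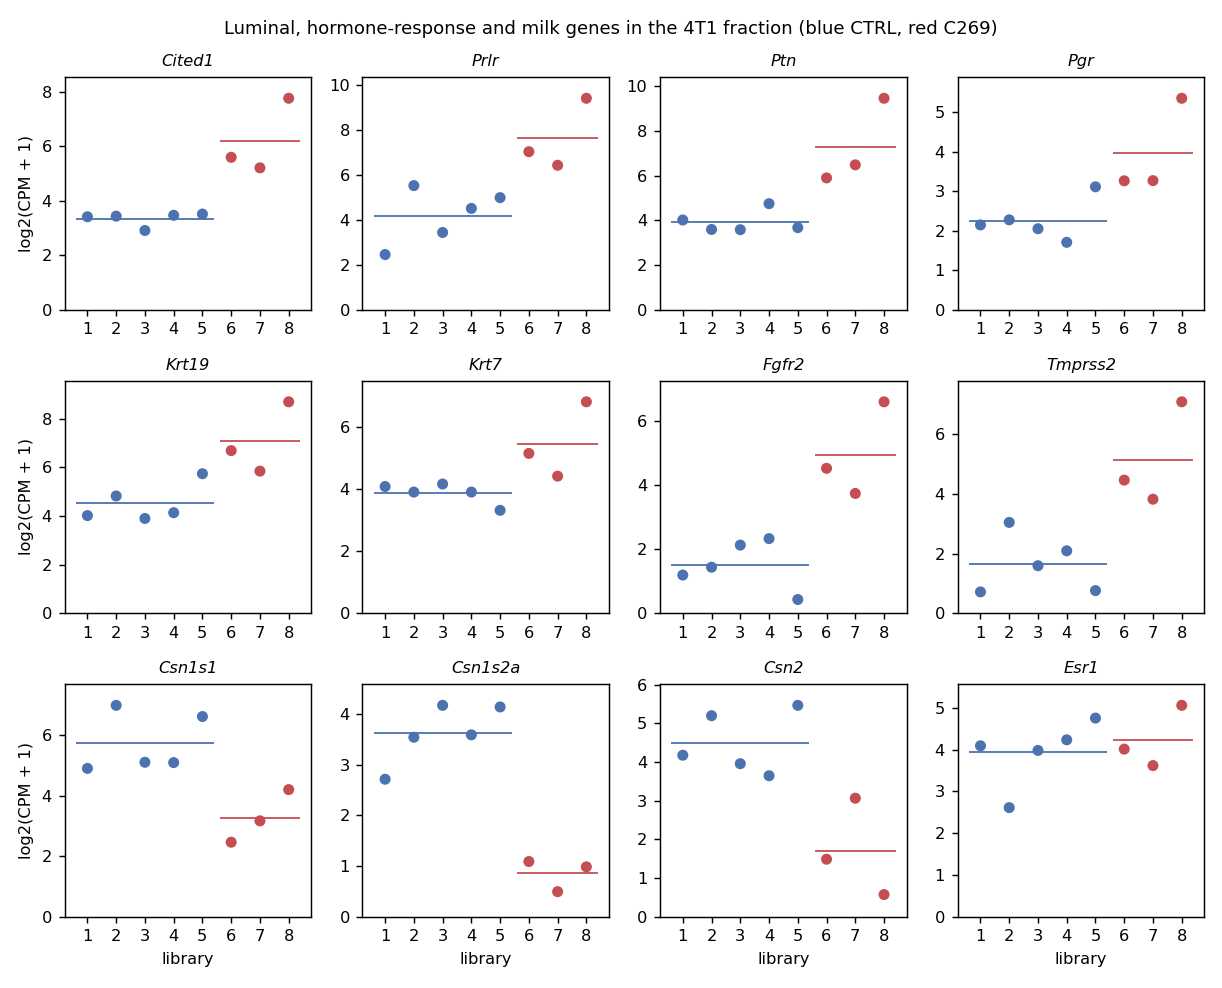
Level of 12 genes in each library as log2(CPM + 1), CTRL libraries 1 to 5 in blue and C269 libraries 6 to 8 in red, with lines at the group means. The first 8 panels have every red point above every blue one, the 3 casein panels the reverse, and the groups overlap for Esr1.

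The lists of epithelial adhesion, epithelial transport and luminal keratins had higher medians in C269 too, and library 8 was again the highest for most of their members. Of 13 tested luminal progenitor and alveolar genes 10 were higher (median 0.27, and -0.00 without library 8), and of 5 tested basal genes 2 were higher and 3 lower (median -0.22). Among genes with the smallest p-values, Fgfr2, the receptor for fibroblast growth factors on epithelium, was at 0.346 to 4.01 CPM in CTRL and at 21.9, 12.3 and 95.3 CPM in C269 (a log2 fold change of 4.26, SE 0.72, edgeR adjusted p = 0.452). Tmprss2, a serine protease of epithelial surfaces, was at 0.641 to 7.24 CPM against 20.99, 13.1 and 134 CPM. Slpi, a secreted inhibitor of leukocyte proteases, was already abundant in CTRL at 576 to 1556 CPM and reached 1678, 1928 and 5938 CPM in C269 (a log2 fold change of 1.80, SE 0.40, edgeR adjusted p = 0.734, and 1.15 without library 8). Scnn1a, which encodes the alpha chain of a sodium channel of epithelia, was at 0.502 CPM or less in every CTRL library and at 3.61, 4.51 and 12 CPM in C269. Capsl, a calcium-binding protein, was at 0.251 CPM or less in CTRL and at 6.55, 6.97 and 19.8 CPM in C269. In both genes a CTRL library held 2 counts at most, so their levels there are near the limit of detection.

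All 15 tested members of the epithelial adhesion list were higher in C269, 3 of them above every CTRL library. Epcam, the epithelial adhesion molecule, overlapped between the groups, at 8.51 to 45.6 CPM in CTRL and 58.2, 37.5 and 184 CPM in C269. The median of this list was 1.77 and came to 0.54 without library 8, in which 14 of the 15 genes were highest. All 9 tested genes of the epithelial transport list were higher (median 1.17, 0.85 without library 8), among them the water channel gene Aqp5 at 0 to 1.12 CPM in CTRL and 4.74, 3.28 and 28.7 CPM in C269. Of the 5 tested luminal keratins 4 were higher, Krt7 at 9.004 to 17.02 CPM in CTRL and 34.8, 20.5 and 112 CPM in C269. Their median was 1.23, and 0.69 without library 8. No member of these lists passed edgeR.

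Milk protein genes lay on the other side. The 3 casein genes below are neighbours on chromosome 5, make the main proteins of milk and are textbook targets of prolactin and STAT5. Since the receptor that acts on them differed in the opposite direction, the bases before their start sites are shown (RefSeq, GRCm38.p6, 250 bases ending at the base before the start site, 5′ to 3′ on the coding strand), with the STAT core TTCNNNGAA in capitals.
Csn1s1, chr5:87665958-87666207, plus strand: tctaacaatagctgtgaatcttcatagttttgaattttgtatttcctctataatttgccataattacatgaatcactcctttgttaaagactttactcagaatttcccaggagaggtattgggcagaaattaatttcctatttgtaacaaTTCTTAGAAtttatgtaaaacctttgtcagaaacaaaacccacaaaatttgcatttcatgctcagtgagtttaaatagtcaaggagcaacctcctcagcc
Csn2, chr5:87699426-87699675, minus strand: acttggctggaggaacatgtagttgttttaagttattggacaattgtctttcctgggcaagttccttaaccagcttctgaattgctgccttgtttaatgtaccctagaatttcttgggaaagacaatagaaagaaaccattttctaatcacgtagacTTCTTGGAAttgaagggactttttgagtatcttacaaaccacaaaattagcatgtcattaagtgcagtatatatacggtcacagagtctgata
Csn1s2a, chr5:87774200-87774449, plus strand: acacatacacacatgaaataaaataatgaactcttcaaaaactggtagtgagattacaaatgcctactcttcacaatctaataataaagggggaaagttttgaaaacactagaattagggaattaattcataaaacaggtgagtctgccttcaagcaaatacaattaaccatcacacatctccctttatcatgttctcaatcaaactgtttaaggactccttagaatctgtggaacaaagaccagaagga
The core, read on both strands, occurred once in the Csn1s1 window, starting 100 bases before the start site. It occurred once in the Csn2 window, 93 bases before the start site, and not in the Csn1s2a window. These positions hold for the RefSeq start sites only. In the gene coordinates used for the counts Csn1s2a starts at 87774567, and the bases between its window and that start were not searched. The Csn2 start in those coordinates, 87699630, lies inside the Csn2 window. Of 32851 RefSeq promoter windows of this length 7.02% held it. Promoters of 7 of the 10 genes of the milk list were found, of which 3 held the core.

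Csn1s1, which encodes alpha-S1 casein, was at 28.9, 126, 33.4, 33.1 and 97.0 CPM in CTRL and at 4.51, 7.99 and 17.4 CPM in C269 (a log2 fold change of -2.62, SE 0.61, edgeR adjusted p = 0.748). Csn1s2a, another alpha casein, was at 5.56, 10.7, 17.02, 11.04 and 16.6 CPM in CTRL and at 1.13, 0.410 and 0.980 CPM in C269 (a log2 fold change of -3.75, SE 0.70, edgeR adjusted p = 0.614). Csn2, beta casein, was at 17.1, 35.8, 14.6, 11.5 and 43.3 CPM against 1.81, 7.38 and 0.490 CPM (log2 fold change -2.76, SE 0.82, edgeR adjusted p = 0.809). For all 3 genes every C269 library, library 8 included, was below every CTRL library. Prlr and the caseins thus differed in opposite directions between the same libraries. Csn3, which encodes the kappa casein at the same cluster and was named after its values were seen, overlapped between the groups at 21.3 to 98.4 CPM and 25.1, 19.9 and 95.7 CPM. Of the 10 genes of the list 7 were tested, 3 higher and 4 lower, with a median of -1.38. DESeq2 called the 3 caseins, with adjusted p-values of 0.00606, 0.000168 and 0.0419 for Csn1s1, Csn1s2a and Csn2. Within CTRL, Csn1s1 and Csn2 were highest in libraries 2 and 5, and Csn1s2a in libraries 3 and 5.

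The genes with the smallest p-values on the lower side included Tead1, Sema3e, Nrp2, Syt13 and Cpe. Tead1 (chr7:112679318-112906807), a DNA-binding partner of the Hippo pathway co-activators YAP and TAZ, was at 58.0, 78.8, 59.4, 84.8 and 73.4 CPM in CTRL and at 29.3, 25.8 and 41.9 CPM in C269. Both groups were tight and did not overlap (log2 fold change -1.06, SE 0.22, edgeR adjusted p = 0.734), with -1.16 without library 8. The CTRL libraries nearest to C269 were libraries 1 and 3. Sema3e, a secreted guidance protein that acts on vessels, was at 43.2, 71.1, 41.2, 61.5 and 19.1 CPM against 12.6, 10.9 and 14.9 CPM (log2 fold change -1.78, SE 0.39). Nrp2, a receptor for class 3 semaphorins and for VEGF-C, was at 108 to 190 CPM (median 125) against 75.2, 57.2 and 66.4 CPM (log2 fold change -0.95, SE 0.23). Syt13, a synaptotagmin of secretory vesicles, was at 22.2 to 83.0 CPM against 16.5, 17.4 and 13.5 CPM, and Cpe, a carboxypeptidase that processes prohormones, at 51.3 to 97.5 CPM against 31.6, 28.3 and 46.5 CPM. None of these 5 genes passed edgeR, and DESeq2 called Tead1, Sema3e, Nrp2 and Syt13 but not Cpe.

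Hypoxia genes were mostly lower in C269 but with overlap. Ndrg1 (ENSMUSG00000005125, chr15:66929318-66969640), a stress-response gene induced by hypoxia, was at 368, 870, 425, 727 and 612 CPM in CTRL and at 391, 277 and 315 CPM in C269, so that library 6 stood above CTRL library 1. Its log2 fold change was -0.75 (SE 0.28). P4ha1, a subunit of the enzyme that hydroxylates collagen proline, was at 76.1, 197, 81.1, 182 and 234 CPM against 76.7, 56.8 and 64.7 CPM. In both genes CTRL libraries 1 and 3 were close to the C269 libraries and libraries 2, 4 and 5 were high. Ribosomal RNA features split the libraries the same way, at 5.74%, 5.5% and 5.85% of counts in libraries 2, 4 and 5 and 0.579% to 2.6% in the other 5, and libraries 2 and 5 had the fewest detected genes (15540 and 15649). Of the genes in the paragraph before, Tead1 and Nrp2 also had CTRL libraries 1 and 3 lowest within CTRL, but Sema3e, Syt13 and Cpe did not. The part of this split in the differences of hypoxia, protease and macrophage genes, or of other genes described here, was not tested. The split was also seen in Hk2, the inducible hexokinase of glycolysis, at 382, 909, 347, 653 and 839 CPM against 336, 270 and 286 CPM, although its groups did not overlap (log2 fold change -0.95, SE 0.33, edgeR adjusted p = 0.809).

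Over the 20 hypoxia genes, all tested, 17 were lower and 3 higher, none lay apart from CTRL, and the median was -0.50 (-0.11 with limma-voom and quality weights, -0.23 without CTRL library 5). Of 17 glycolysis genes 15 were lower, by a median of only -0.12 (0.01 without library 8). Vegfa, the growth factor for vessels and a standard hypoxia target, also named after its values were seen, was at 136 to 302 CPM in CTRL and 302, 163 and 219 CPM in C269, with a log2 fold change of 0.13 (SE 0.30).

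Matrix proteases and macrophage genes spread widely within CTRL. Mmp12, the macrophage elastase, was at 76.3, 867, 85.3, 633 and 424 CPM in CTRL and at 102, 63.3 and 45.6 CPM in C269. Mmp13, a collagenase, was at 74.2, 660, 70.3, 499 and 202 CPM against 77.4, 53.7 and 23.5 CPM. CTRL libraries 1 and 3 were thus at the C269 level, and the log2 fold changes of -2.36 (SE 0.77) and -2.32 (SE 0.77) rest on libraries 2, 4 and 5 (edgeR adjusted p = 0.809 for both). Mmp8, the neutrophil collagenase, was below all CTRL libraries in C269, at 77.6 to 181 CPM against 60.5, 59.2 and 37.2 CPM. In all, 15 of 17 tested genes of the protease list were lower (median -0.70, and -0.19 without CTRL library 5), 2 of them below every CTRL library, and 0 with TMM-scaled CPM.

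C1qa, a chain of the complement component C1q that tissue macrophages make, was at 118, 499, 103, 1200 and 165 CPM in CTRL and at 103, 45.7 and 81.8 CPM in C269. Library 6 and CTRL library 3 were nearly level. C1qb was at 82.3, 285, 84.5, 555 and 84.2 CPM against 71.1, 37.7 and 62.2 CPM. C1qc overlapped, at 63.7, 371, 97.4, 939 and 163 CPM against 73.8, 37.9 and 87.7 CPM. Of the 17 macrophage genes 15 were lower, none past the test, and their median of -0.88 came to -0.44 without CTRL library 4, -1.34 without library 8 and -0.15 with limma-voom and quality weights. With those weights the protease median was -0.21 and the collagen median 0.06. Collagen and fibroblast genes were lower in 20 of 21 cases (median -0.64), but 20 of the 21 were highest in CTRL library 5, whose list sum was 68462 CPM against 4629 to 13938 CPM in the other CTRL libraries and 6489, 12402 and 19016 CPM in C269. Without library 5 the median was 0.40.

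**Figure D2:**
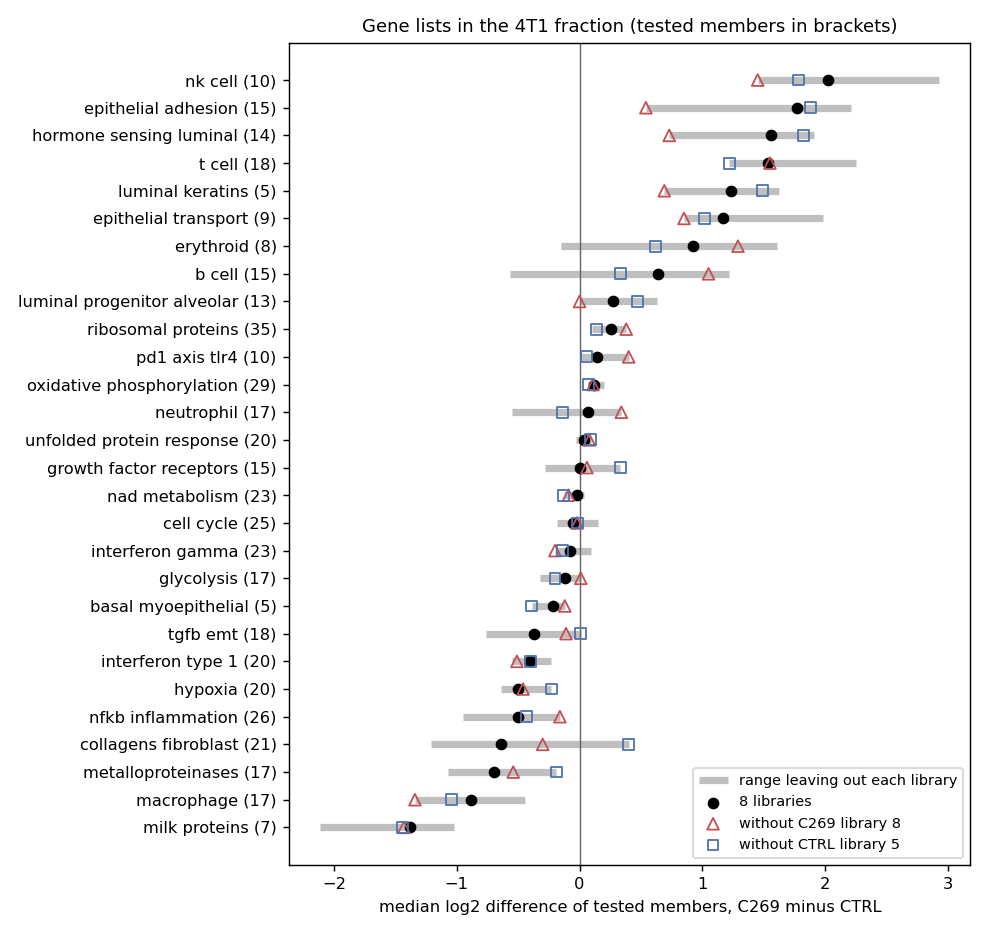
Median log2 fold change of C269 over CTRL for gene lists. Black dots are medians over the 8 libraries, triangles those without C269 library 8, squares those without CTRL library 5, and grey bars the range leaving out each library in turn. The collagen median is -0.64 with all 8 libraries and 0.40 without library 5, and the epithelial adhesion median 1.77 and 0.54 without library 8.

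**Figure D3:**
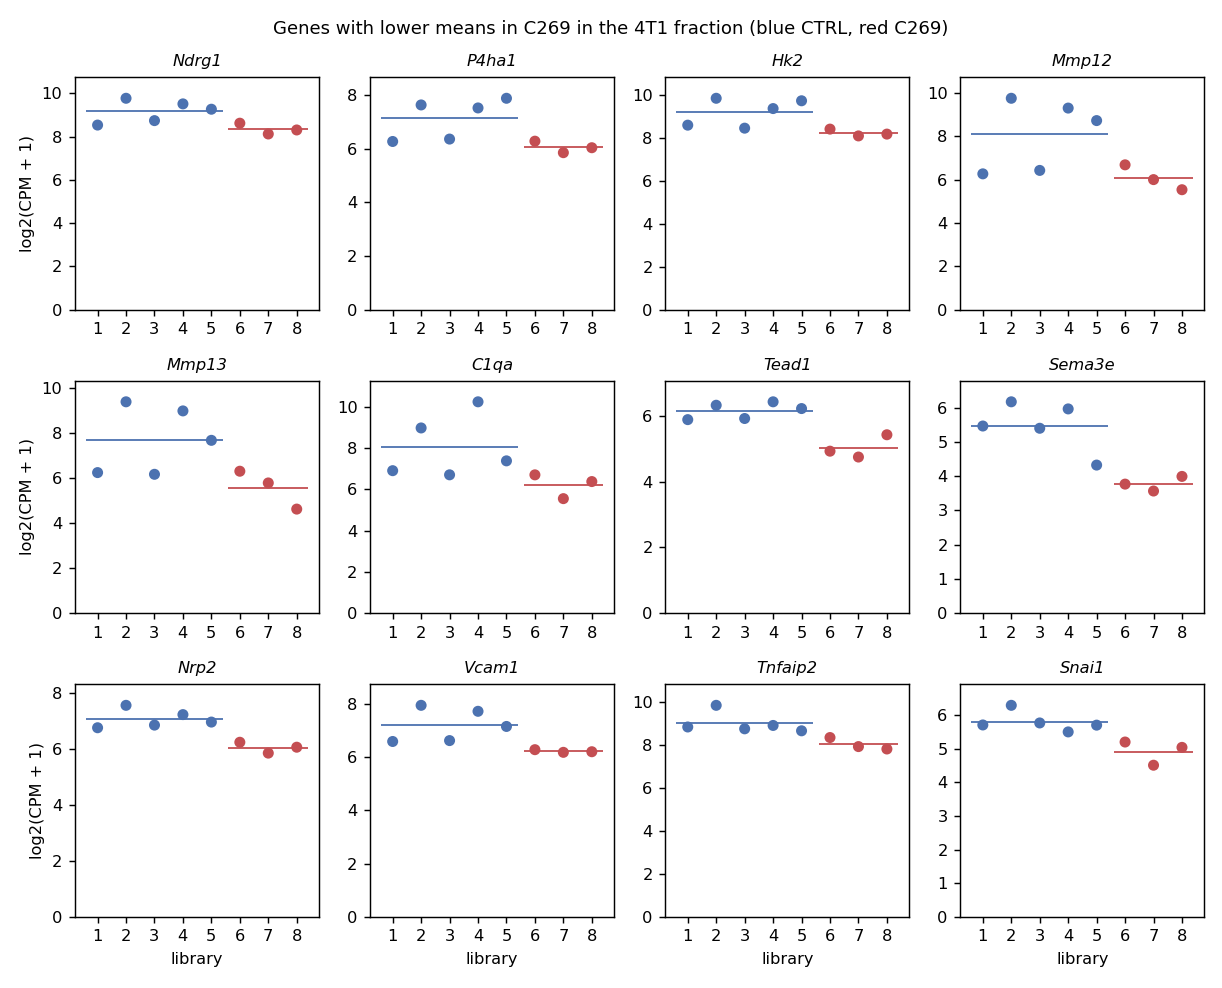
Level of 12 genes with lower means in C269, as log2(CPM + 1) per library, CTRL in blue and C269 in red, with lines at the group means. Tead1, Sema3e, Nrp2, Hk2, Vcam1, Tnfaip2, C1qa and Snai1 have every red point below every blue one (with TMM-scaled CPM, Hk2, C1qa and Snai1 overlap), and for Mmp12 and Mmp13 CTRL libraries 1 and 3 lie among the red points.

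Genes of NF-kB signalling and of the epithelial-mesenchymal transition had lower medians as well. Vcam1, an adhesion molecule for leukocytes, was at 94.9, 245, 97.2, 210 and 141 CPM in CTRL and at 76.5, 71.3 and 72.5 CPM in C269 (a log2 fold change of -0.97, SE 0.30, edgeR adjusted p = 0.809). Tnfaip2, induced by TNF, was at 406 to 926 CPM against 327, 244 and 225 CPM, and Csf3, the granulocyte colony-stimulating factor that 4T1 tumours are known to secrete, at 27.7 to 59.2 CPM against 17.2, 21.7 and 13.5 CPM. These 3 of 26 tested members lay below every CTRL library (against 2.85% of all genes), 21 were lower and 5 higher, and the median of -0.50 came to -0.16 without library 8. Snai1, a repressor of E-cadherin, was at 44.2 to 77.1 CPM in CTRL and 35.7, 21.7 and 31.8 CPM in C269, and Tgfb2, a TGF-beta ligand, at 14.6 to 96.3 CPM against 11.96, 7.17 and 11.02 CPM. The median of their list was -0.37 with 12 of 18 lower, and 0.01 without CTRL library 5.

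Among proliferation and interferon genes, single members lay apart from CTRL. Cdk1, the mitotic kinase, was at 65.9 to 121 CPM in CTRL and at 50.6, 65.2 and 57.1 CPM in C269, while 11 of 25 cell cycle genes were higher and 14 lower (median -0.05). Mx2, an interferon-induced gene annotated as a polymorphic pseudogene, was at 10.5 to 31.5 CPM against 8.35, 4.71 and 10.3 CPM. The type I interferon list had 15 of 20 members lower (median -0.40) and the interferon-gamma list 13 of 23 (median -0.08). Within the latter Ifngr1, which encodes a ligand-binding receptor chain for interferon-gamma, lay above all CTRL libraries, at 63.0 to 146 CPM against 199, 154 and 331 CPM (log2 fold change 1.02, SE 0.34, edgeR adjusted p = 0.809).

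Immunoglobulin transcripts were more abundant in all 3 C269 libraries than in any CTRL library. Ighg1, the constant region of IgG1, named here after its values were seen, was at 409, 18.7, 434, 19.8 and 140.3 CPM in CTRL and at 2890, 4935 and 11740 CPM in C269 (a log2 fold change of 4.90, SE 1.04, edgeR adjusted p = 0.734). Igkc, the kappa light chain, was at 3292, 118, 3094, 131 and 419 CPM against 8707, 12819 and 23145 CPM. Jchain, which joins IgM and IgA polymers and was also named after its values were seen, was at 11.1 to 342 CPM against 661, 988 and 1677 CPM. Immunoglobulin genes together took 0.0282% to 0.738% of gene counts in CTRL and 1.65%, 2.40% and 4.21% in C269. Cd79b, a part of the B cell receptor, overlapped between the groups, at 0 to 88.3 CPM in CTRL and 36.6, 219.5 and 52.2 CPM in C269 (a log2 fold change of 1.40, SE 1.16). Of the B cell list, 14 of 15 tested members were higher (median 0.64, but -0.57 without library 7). Only 2, the immunoglobulin genes Igkc and Ighm, lay above every CTRL library.

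T cell and NK cell genes were higher in every tested member, 18 of 18 (median 1.53) and 10 of 10 (median 2.02). Of them 6 and 2 lay above every CTRL library (against 2.16% of all tested genes). None passed edgeR. The summed T cell list was 15.3 to 414 CPM in CTRL (median 80.5) and 489, 503 and 827 CPM in C269, where the CD4 CTRL fraction held 2026 to 5432 CPM. Trac, the T cell receptor alpha constant region, was at 0 to 12.5 CPM in CTRL and 28.2, 15.2 and 39.2 CPM in C269, and Nkg7, a granule protein of cytotoxic cells, at 0 to 54.9 CPM against 95.3, 60.9 and 237 CPM. The summed list of B cells was 260 to 6145 CPM in CTRL and 11319 to 26907 CPM in C269. In C269 this sum was mainly Igkc, at 8707, 12819 and 23145 CPM, and Ighm, at 2037, 2318 and 3298 CPM. The summed list of NK cells was 24.2 to 553 CPM in CTRL and 464 to 1780 CPM in C269. Both sums shared 1 order within CTRL, with libraries 1 and 3 above libraries 2, 4 and 5. Of the T cell list, Cd4, Cd8a and the adaptor Lat were at 0 in CTRL libraries 2, 4 and 5. Other members were detected there, among them Lck at 31.1, 4.77 and 10.7 CPM and Cd3e at 7.24, 2.51 and 13.2 CPM. The T cell list sum in these libraries was 80.5, 15.3 and 54.7 CPM. Red cell genes also had CTRL libraries 1 and 3 above libraries 2, 4 and 5 (194 to 26921 CPM in CTRL, 9027 to 38212 CPM in C269). Their list median of 0.92 came to -0.15 without library 6. Hbb-bs, a beta globin, was at 11507, 745, 12081, 94.3 and 406 CPM in CTRL and 18136, 5445 and 4741 CPM in C269. The share of the mitochondrial genome followed this order too, at 6.96% and 7.13% in CTRL libraries 1 and 3, 2.62% to 3.64% in the other CTRL libraries, and 7.65%, 6.61% and 3.80% in C269. The part of these cell types in the differences described above was not tested.

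**Figure D4:**
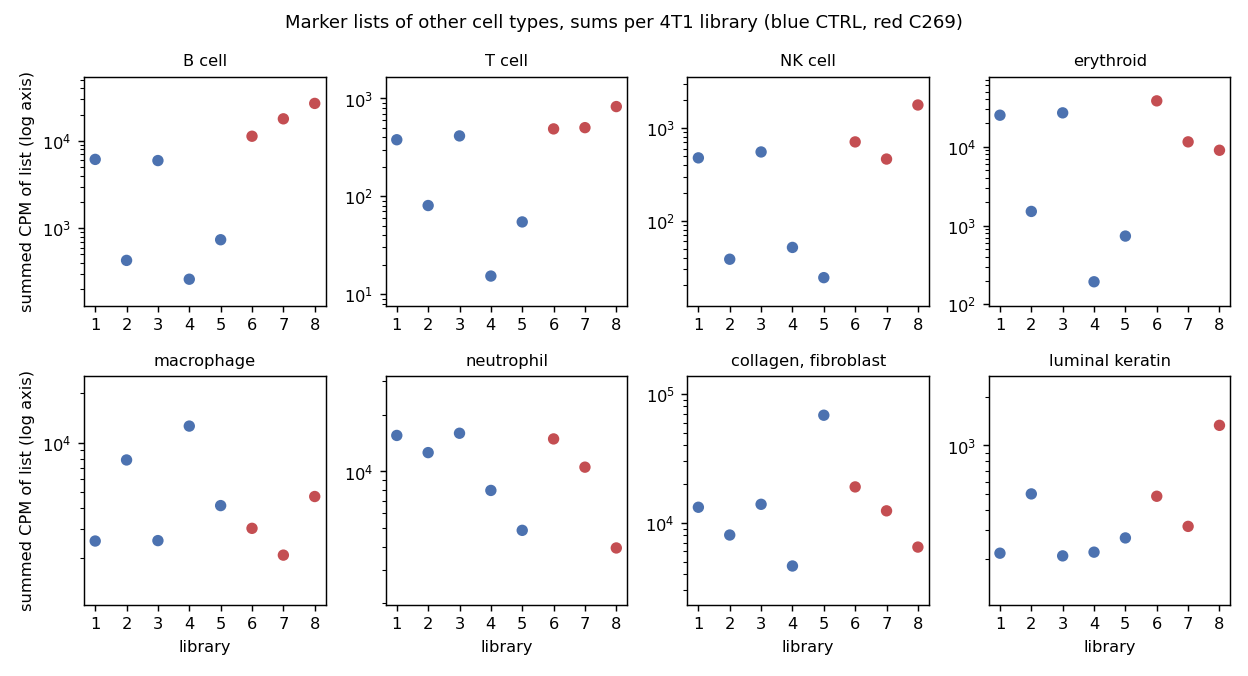
Summed CPM of 8 marker lists in each library on a logarithmic axis, CTRL libraries 1 to 5 in blue and C269 libraries 6 to 8 in red. B cell and T cell sums are highest in the 3 C269 libraries, and CTRL libraries 1 and 3 lie nearer to them than CTRL libraries 2, 4 and 5. In C269 the B cell sum is mainly the immunoglobulin genes Igkc and Ighm.

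Of the genes for protein folding in the endoplasmic reticulum, Creld2, a stress-induced chaperone-like protein, was at 16.3, 15.8, 25.3, 24.3 and 26.3 CPM in CTRL and at 35.7, 56.6 and 56.1 CPM in C269 (a log2 fold change of 1.25, SE 0.29, edgeR adjusted p = 0.748). Herpud1, which serves the degradation of misfolded proteins, also lay above every CTRL library, at 58.4 to 146 CPM against 167, 231 and 158 CPM. The list as a whole was even, with 10 members higher and 10 lower and a median of 0.04. Ribosomal protein genes were higher in 34 of 35 cases by a small amount (median 0.26, range of medians 0.10 to 0.38 leaving out each library). With limma-voom and quality weights their median was 0.07. Their sum was also higher in CTRL libraries 1 and 3 (33092 and 35073 CPM) than in CTRL libraries 2, 4 and 5 (28323, 29039 and 24361 CPM). Of 29 genes of oxidative phosphorylation 23 were higher (median 0.12).

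For genes of the antibody's target and of the checkpoint axis the groups overlapped. Nampt was at 72.4 to 308 CPM in CTRL and at 112, 142 and 148 CPM in C269 (a log2 fold change of -0.19, SE 0.35, edgeR adjusted p = 0.951), and since C269 binds the protein outside the cell, its mRNA does not check the treatment. Cd274, which encodes PD-L1, was at 180 to 365 CPM against 444, 409 and 173 CPM, the groups overlapping at both ends (log2 fold change 0.28, SE 0.36, edgeR adjusted p = 0.934). Tlr4, proposed as a receptor of extracellular NAMPT, was at 14.5 to 29.4 CPM against 16.9, 16.6 and 18.1 CPM. Pdcd1, which encodes PD-1, was at 0 to 6.63 CPM against 8.58, 2.05 and 6.12 CPM, a difference with a wide error (log2 fold change 1.65, SE 1.42). The PD-1 ligand gene Pdcd1lg2 had a log2 fold change of 0.88 (SE 0.63) and Cd80, a costimulatory ligand that also binds PD-L1, of 0.94 (SE 0.59). Of 23 tested genes of NAD metabolism 10 were higher and 13 lower, with a median of -0.02.

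Most of the 60 genes that DESeq2 called lower were at low counts in CTRL and had hardly any in C269. Of the 60, 51 had a CTRL mean under 20 CPM, 32 were not protein-coding and 43 were under 1 CPM in all C269 libraries. Their highest CTRL library was library 2 or 5 in 55 of the 60. The caseins called lower shared parts of this pattern. Csn1s1 was highest in library 2 (126 CPM) and Csn2 in library 5 (43.3 CPM). Csn1s2a was highest in library 3 (17.02 CPM), with a CTRL mean of 12.2 CPM. Sntg1, a syntrophin of neurons, was at 5.77, 7.24, 1.79, 0.502 and 14.9 CPM in CTRL and at 0 in C269. Myrf, a myelin regulator, was at 1.07, 11.1, 4.48, 1.00 and 12.1 CPM and at 0, and Adcy8, a brain adenylyl cyclase, at 2.14, 34.1, 4.70, 2.51 and 10.04 CPM against 0, 0.205 and 0.490 CPM. As a measure of RNA from genes that these tissues do not use, chosen after these values were seen, the 1504 protein-coding genes of olfactory, vomeronasal and trace amine receptors were summed. They came to 149, 707, 110, 151 and 565 CPM in CTRL libraries 1 to 5 and to 58.9, 48.8 and 107 CPM in C269, highest in the same libraries 2 and 5. Their part in the lower calls was not tested.

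Cited1, Prlr and Ptn also had positive estimates in the T cell fractions, which have control libraries of their own. In 1 fit of 28 libraries the log2 fold change of Cited1 was 3.42 (SE 0.88) in the 4T1 fraction, 2.84 (SE 0.83) in CD4 and 3.74 (SE 0.92) in CD8. Its level ran from 0.468 to 7.13 CPM in CD4 CTRL and from 14.01 to 58.1 CPM in CD4 C269, groups that did not overlap, and from 0 to 5.99 CPM and 1.84 to 92.2 CPM in CD8. For Prlr the log2 fold changes were 3.80 (SE 0.82), 2.61 (SE 0.74) and 3.10 (SE 0.81), and for Ptn 4.20 (SE 0.97), 3.01 (SE 0.88) and 5.30 (SE 1.08). For these 3 genes the edgeR adjusted p was 1 in CD4, and in CD8 it was 0.144 for Cited1, 0.168 for Prlr and 0.0748 for Ptn, so none passed. Of other epithelial genes, Krt19 had a log2 fold change of 2.24 (SE 0.85) in CD4 and 3.63 (SE 0.97) in CD8. Fgfr2 had 2.04 (SE 0.92) and 4.58 (SE 1.20), and Epcam 1.57 (SE 0.60) and 2.37 (SE 0.66). Slpi was below 0 in CD4, at -0.47 (SE 0.40), and at 1.13 (SE 0.41) in CD8. Esr1 was at 0.18 (SE 0.55) in CD4 and 2.17 (SE 0.61) in CD8, with 0.32 (SE 0.63) in the 4T1 fraction of the same fit. The labels do not say which fractions came from the same mouse.

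Of the genes with lower means in the 4T1 fraction, some had estimates of the same sign in the T cell fractions and some did not. Csn2 had a log2 fold change of -2.41 (SE 0.88) in CD4 and -2.25 (SE 1.03) in CD8, and Csn1s1 of -1.94 (SE 0.80) and 0.03 (SE 0.83). C1qa had -0.91 (SE 0.59) and -0.94 (SE 0.60), and Sema3e -0.60 (SE 0.50) and -1.22 (SE 0.60). The estimates were above 0 for Mmp12, at 0.42 (SE 0.44) and 0.46 (SE 0.45), and for Ndrg1, at 0.08 (SE 0.23) and 0.30 (SE 0.23). None of these effects passed edgeR in a T cell fraction. Of 15880 genes, none differed in effect between 4T1 and CD4 (0% called) and 1 between 4T1 and CD8 (0.0063%). That gene was Hap1, a huntingtin-associated transport protein, at 0.852 to 6.50 CPM in 4T1 CTRL, 11.1, 9.84 and 27.9 CPM in 4T1 C269, 2.02 CPM on average in CD8 CTRL and 0.0746 CPM in CD8 C269. The difference in log2 fold change was 6.10 (SE 1.05, edgeR adjusted p = 0.0427), and the adjusted p ran from 0.00818 to 0.29 over the alternatives, with 0.29 without library 8.

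**Figure D5:**
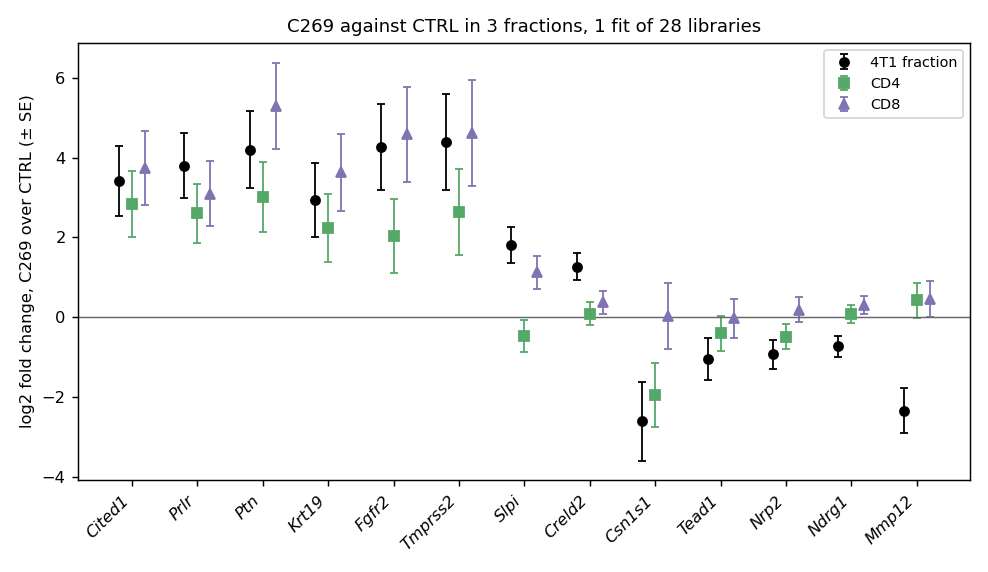
Log2 fold change of C269 over CTRL with its standard error for 13 genes in the 4T1, CD4 and CD8 fractions, from 1 fit of 28 libraries. Cited1, Prlr, Ptn, Krt19, Fgfr2 and Tmprss2 are above 0 in all 3 fractions, while the estimates for Ndrg1 and Mmp12 are below 0 in the 4T1 fraction and above 0 in CD4 and CD8.

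With libraries 9 and 10 included as a check, again no gene passed edgeR (0 of 12875). Of the 13750 genes of the main test, 116 lay above all CTRL libraries and 251 below. Cited1, at 0 CPM in both added libraries, then had a log2 fold change of 2.66 (SE 1.35), and Prlr, at 41.98 and 43.3 CPM in them, 3.14 (SE 0.86). The median of the epithelial adhesion list went from 1.77 to 4.32 and that of the luminal keratins from 1.23 to 2.50. These libraries also differed from all others of the 4T1 fraction in Y-linked RNA, with 208 and 210.4 CPM summed over Ddx3y, Kdm5d, Uty and Eif2s3y against 0 to 1.39 CPM in libraries 1 to 8.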

How the data were processed

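RNA-seq counts of 30 tumour libraries were analysed. Per the submitters' processing notes, reads were checked with FastQC, counted with featureCounts and compared with DESeq2, and the build named is mm9. Aligner and tool versions: not given in the sources used here. Gene starts matched GENCODE M21 (GRCm38) for 54928 of 55141 identifiers found (99.6%), so coordinates are those of GRCm38. The authors deposited raw counts, per library and per condition, with no normalization. The deposited baseMean signal, log2 fold changes, Wald score and p-values of the authors were not used here. Library columns carry numbers only. For each condition column, adding up 5 libraries gave its value in 100% of genes for a single choice of libraries, which gave the groups.

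The 7 ribosomal RNA features (3.05% of counts) were left out, leaving 55401 genes. Genes passing filterByExpr were tested with the quasi-likelihood test of edgeR 4.0.16 (R 4.3.3, TMM factors, Benjamini-Hochberg adjustment over all tested genes, threshold 0.05), with DESeq2 1.42.0, limma-voom 3.58.1, other scalings and filters, and each library left out as alternatives. Differences between fractions were contrasts in a fit of 28 libraries. CPM are shares of counts assigned to genes. The closest CTRL pair, libraries 1 and 3, differed by a mean chi-square of 5.07 per gene, where counting error alone gives about 1. The other CTRL pairs gave 23 to 72.6. A value above 1 cannot tell 2 mice from 2 preparations of 1 mouse. Both libraries were kept, and with their counts summed as 1 library all 77 named genes kept their sign. The scripts were tested on simulated data.

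Named genes were the 4 marker genes of the comparison, the 12 per direction with the smallest p and at least 5 CPM in the higher group, the 3 with the smallest p in each of 42 lists (671 symbols, 670 found), 10 genes of the target axis and mammary biology, and 5 per difference between fractions. Others are marked as named after their values were seen or serve as checks of cell type. Members and lists were chosen with earlier results of these data known. The text describes some of the genes the rule names. Counts of genes whose groups do not overlap, and list medians, were computed under alternatives added after seeing the data.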

Additional observations from a re-analysis of the deposited data

Results flagged for a closer look

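In single CTRL libraries some values stood far from the other 4. Of 105 genes and list sums examined in the 5 CTRL libraries, 16 had such a gap. The rule's rate of about 1 in 20 is for independent, normally distributed values. These items are not independent, since list sums contain examined genes, so the count is not evidence of an excess. Library 2 was high for Krt18 (277 CPM), Adcy8 (34.1 CPM), Mmp8 (181 CPM), Tnfaip2 (926 CPM), Snai1 (77.1 CPM) and the sums of the luminal keratins (503 CPM) and of luminal progenitor and alveolar genes (2700 CPM). Library 5 was high for Snai2 (39.8 CPM), Col12a1 (299.9 CPM), Pdgfra (185 CPM) and the sums of the hormone-sensing list (1385 CPM, of which the surface protein gene Ly6a made up 1147 CPM), growth factor receptors (1106 CPM) and collagens (68462 CPM). Library 3 was low for Cited1 (6.50 CPM), library 4 was high for Ptn (25.8 CPM) and library 1 for Pdcd1 (6.63 CPM).

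The C269 effect on Hap1 differed between the 4T1 and CD8 fractions by 6.10 on the log2 scale (edgeR adjusted p = 0.0427). In the 4T1 fraction 3 of 3 C269 libraries lay above every CTRL library. The larger part came from CD8, with a log2 fold change of -4.20 (SE 0.87) against 1.90 (SE 0.59) in 4T1. In CD8 the mean was 2.02 CPM in CTRL and 0.0746 CPM in C269, near the limit of detection. The call was lost in several alternatives, listed in the next section.

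Libraries 9 and 10, which enter no main comparison, held Muc2 at 4408 and 5348 CPM, Lypd8 at 5180 and 4679 CPM, Car1 at 4190 and 4984 CPM and the 4 Y-linked genes at a summed 208 and 210.4 CPM, where CTRL libraries reached 10.7, 11.1, 12.8 and 1.39 CPM.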

How the results depend on the processing

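The count of genes past the threshold was 0 with edgeR and stayed 0 in every fit that left out 1 library (lowest and highest 0), with limma-voom, other scalings, a filter on 10 counts and all 10 libraries. DESeq2 called 84 (24 higher, 60 lower), edgeR without a filter 21 (20 higher, 1 lower) and the fit of 28 libraries 2, Celsr1 (4.62, adjusted p = 0.0203) and Ly6c2 (1.75, adjusted p = 0.0349). For the effect in 4T1 minus CD4, 0 genes passed, 1 with all 30 libraries (Celsr1), 9 without a filter and 0 to 1 leaving out single libraries (Sla2 without library 1). For 4T1 minus CD8, 1 gene passed, 0 with DESeq2 size factors, 42 with DESeq2, 52 without a filter and 0 to 2 leaving out single libraries, with Hap1 lost without library 4, 5, 7 or 8 (adjusted p 0.0854, 0.0845, 0.0579 and 0.29), with all 30 libraries (0.0608, where Celsr1 passed) and with DESeq2 size factors (0.0514). Genes whose groups did not overlap numbered 297 higher and 392 lower, 116 and 251 with libraries 9 and 10, and 392 to 829 and 486 to 1144 leaving out single libraries, where fewer libraries overlap less often by construction. Of 77 named genes 72 kept their sign in every alternative. With all 10 libraries Esr1 came to -0.22, Saa1 to 2.94 and Cd274 to -0.42. The cause was not tested. Leaving out single libraries, values ranged from -0.10 (without library 8) to 0.57 for Esr1, -0.06 (without library 6) to 1.63 for Hbb-bs, -0.40 to 0.10 (without library 4) for Nampt and -0.02 (without library 6) to 0.66 for Cd274. Of 28 list medians 14 kept their sign throughout. No paired analysis was possible because the columns carry no replicate letters. With 2347983 to 4879069 counts per library, genes near 1 CPM rest on few reads.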

Other observations

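Hormone-sensing and casein genes can be followed in each C269 library. In library 8 Prlr (682 CPM), Ptn (705 CPM) and Krt19 (413 CPM) were highest. There Csn2 was lowest (0.490 CPM) while Csn1s1 (17.4 CPM) was the highest of the 3 C269 libraries. Csn2 at that level rests on few reads, so its order among the C269 libraries is uncertain. Of the 297 genes above every CTRL library, library 8 was the highest for 181 (60.9%). Of the 392 genes below every CTRL library, library 8 was the lowest for 93 (23.7%) and library 7 for 171 (43.6%).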
